A study of Mus musculus with 6 samples.

Results

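New isoforms of named genes are transcripts that the assembly of these reads built on top of the annotation, without a name of their own, at loci that hold exactly 1 named gene on the same strand. There were 6230 of them, of 153503 transcripts in all, and they belonged to 3503 genes whose FPKM averaged 1 or more. FPKM counts fragments by transcript length and by sequencing depth. A further 2605 assembled transcripts lay at loci with no gene name and 1404 at loci with several names, and these are not counted here. Total RNA came from mouse Sertoli cell lines that did (libraries 2, 4 and 7) or did not (libraries 9, 11 and M) express GFP from the Y chromosome, 3 libraries each. Sertoli cells nurse the germ cells inside the seminiferous tubule. The labels do not say how the lines were derived, how old the donor animals were, or whether libraries are separate cultures, so a p-value here reflects only how these libraries vary, which may be technical. The comparison asks which isoforms differ between lines with and without the reporter.

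One gene can give several transcripts. The splicing machinery can leave an exon out, keep an intron in or use another splice site, and a transcript can start at another promoter or end at another polyadenylation site. Where a skipped coding exon has a length that is a multiple of 3, the reading frame downstream is kept. Testis is known as a tissue with much alternative splicing, though most of that is a feature of its germ cells. An assembler proposes isoforms from short reads and shares the reads of a gene among them, so the level of each isoform is an estimate that depends on the other isoforms listed.

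The libraries held 8.25 to 11.8 Gb of aligned bases, with 11.2 Gb or more in each GFP-positive and 10.02 Gb or less in each GFP-negative library, so depth went with the group. No more than 619 of the 6230 isoforms were listed at 0 in any library, and 4701 were above 0 in all 6. Of 25 Sertoli markers, 24 averaged 1 FPKM or more, and the summed level of the list was 2240 to 4016 FPKM in GFP-positive libraries and 1068 to 4268 in GFP-negative ones. The summed level of 17 germ cell markers was 59.2 to 244.8 FPKM against 3.89 to 5.97, with the protamine genes Prm1 and Prm2 listed at 0. The sums of 7 myoid markers (141.3 to 1940 against 349.8 to 904), 8 fibroblast markers (90.6 to 151.8 against 84.1 to 1327) and 6 Leydig markers (46.6 to 90.6 against 82.6 to 109.8) overlapped. Those of 5 macrophage markers (1.64 to 2.22 against 3.61 to 7.88) and 4 endothelial markers (3.43 to 6.32 against 7.57 to 12.3) did not overlap and were low in every library.

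New isoforms were long, spliced transcripts that mostly began and ended where named ones do. Their median length was 5218 nt, against 1742 nt for the 26731 named transcripts of the same genes and 4427 nt for the longest named transcript of each gene. They had a median of 11 exons against 6, and 3239 of them (52.0%) were longer than every named transcript of their gene. The 5′ end fell exactly on that of a named transcript in 3811 (61.2%) and the 3′ end in 3921 (62.9%). An end lay at least 100 bases beyond all named transcripts more often at the 3′ side (1102, 17.7%) than at the 5′ side (623, 10%). Such 3′ extensions had a median of 1374 bases and 5′ extensions a median of 509 bases.

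Exon numbers and total intron length, set against the named transcripts, sorted the isoforms into classes. In 578 (9.28%) the lengths matched a named transcript with 1 intron kept in. In 444 (7.13%) they matched a named transcript with 1 internal exon left out, and in 48 (0.770%) with several neighbouring exons left out. Another 1075 (17.3%) had more exons than any named transcript, 75 (1.20%) had a single exon, and 37 had the introns of a named transcript with other ends. The other 3973 (63.8%) had a chain that no single such event explained. A match is of lengths and not of positions, because the deposited tables give the ends of a transcript but not its exons. Both ends lay exactly on named ends in 195 of the 578 kept introns and 176 of the 444 skipped exons. The kept introns were shorter (median 989.5 nt) than all introns of the matched named transcripts (median 1401 nt).

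**Figure D1:**
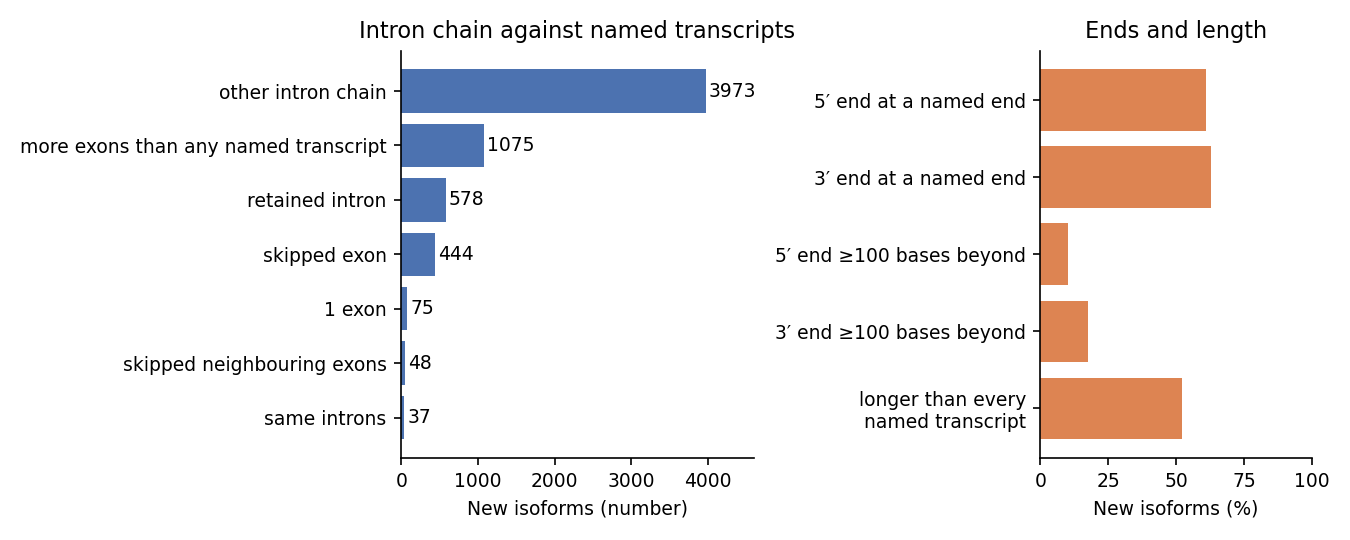
Left, number of new isoforms in each class of intron chain, by exon number and total intron length against the named transcripts of the gene. Right, percent of the 6230 new isoforms with each kind of end or length. Most isoforms (3973) fall in no single-event class, and 5′ and 3′ ends coincide with named ends in 61.2% and 62.9%.

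The skipped exons can be read as sequence. Of those with a single candidate position, 398 lay off a chromosome whose sequences are not shown here. Of these 398, 299 were coding, with a median of 93 nt, against 123 nt for the 44197 distinct internal coding exons of the matched transcripts. A length that is a multiple of 3 was found in 205 of the 299 (68.6%), against 41.0% of all those coding exons. Coding exons of at most 150 nt from 7 of the highest isoforms are shown, with those of Uty and Dazl. Each is the exon whose length matches the difference in total intron length from a named transcript. Some of these isoforms differ in other ways too. Those of Ddr1, Strn3 and Dazl ended 5637, 1067 and 427 bases beyond the named transcripts. That of Etnk2 was 3782 nt long, against at most 2742 nt in named transcripts. The 7 highest were chosen after their values were seen. The letters and coordinates are those of GENCODE M21 on GRCm38, while the deposited tables use mm39.
Strn3 exon 8, chr12:51643104-51643214, minus strand, 111 nt: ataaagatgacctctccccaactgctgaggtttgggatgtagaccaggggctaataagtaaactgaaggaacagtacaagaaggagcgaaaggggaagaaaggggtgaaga
Camkk2 exon 14, chr5:122742100-122742228, minus strand, 129 nt: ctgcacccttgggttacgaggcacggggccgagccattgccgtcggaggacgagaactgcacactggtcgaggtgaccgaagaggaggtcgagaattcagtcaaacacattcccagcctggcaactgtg
Daam2 exon 16, chr17:49474109-49474252, minus strand, 144 nt: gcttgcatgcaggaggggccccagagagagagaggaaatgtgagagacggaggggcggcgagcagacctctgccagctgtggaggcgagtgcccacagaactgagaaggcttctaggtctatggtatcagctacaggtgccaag
Gas7 exon 4, chr11:67643281-67643366, plus strand, 86 nt: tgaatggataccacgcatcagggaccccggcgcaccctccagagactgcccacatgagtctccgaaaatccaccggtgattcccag
Etnk2 exon 4, chr1:133374527-133374610, plus strand, 84 nt: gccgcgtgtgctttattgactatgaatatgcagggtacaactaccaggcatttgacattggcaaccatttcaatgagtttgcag
Myrf exon 19, chr19:10215274-10215354, minus strand, 81 nt: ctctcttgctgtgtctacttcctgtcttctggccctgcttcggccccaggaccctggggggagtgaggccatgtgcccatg
Ddr1 exon 12, chr17:35686481-35686591, minus strand, 111 nt: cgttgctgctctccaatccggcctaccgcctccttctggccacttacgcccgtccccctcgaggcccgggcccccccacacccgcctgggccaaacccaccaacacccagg
Uty exon 13, chrY:1169123-1169257, minus strand, 135 nt: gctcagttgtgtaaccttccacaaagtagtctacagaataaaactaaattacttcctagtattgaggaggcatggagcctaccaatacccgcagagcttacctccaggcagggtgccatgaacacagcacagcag
Dazl exon 8, chr17:50284996-50285046, minus strand, 51 nt: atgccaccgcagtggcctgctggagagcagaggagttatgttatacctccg

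Set against the named transcript that has the exon, the isoform without it had over 50% of the pair in both group means in 5 of these 9 genes. For Strn3, a scaffold of the STRIPAK phosphatase complex, it was 97.5% ± 0.18 (SD, n = 3) of the FPKM of the pair in GFP-positive and 96.8% ± 2.11 of it in GFP-negative libraries, and for Camkk2, a kinase that activates AMPK, 79.3% ± 9.31 and 79.1% ± 2.68. Both pairs of groups overlapped.

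In the formin gene Daam2 the isoform without exon 16 took 88.1 to 99.6% of the pair in GFP-positive libraries and 99.4 to 99.6% in GFP-negative ones. The named Daam2 transcript was near the floor, at 0.00608 to 0.0536 FPKM in GFP-positive and 0.0760 to 0.214 FPKM in GFP-negative libraries. In GFP-positive 7, the library at 88.1%, the new isoform was at 0.0450 FPKM too and held 0.465% of all FPKM of the gene. In Ddr1, a receptor kinase for collagen, the isoform without exon 12 took 74.7 to 89.5% and 68.5 to 95.3%. In Myrf, which encodes a membrane-bound transcription factor, the isoform was listed at 0 in GFP-positive 2, took 99.95 and 99.7% in GFP-positive 4 and 7, and took 85.0 to 99.9% in GFP-negative libraries. The named transcript was at 0.00284 and 0.0120 FPKM in GFP-positive 4 and 7 and at 0.0186 to 2.38 FPKM in GFP-negative libraries. A pair leaves out the other transcripts of the gene, so its percentages are not those of the whole gene. Of all FPKM of its gene, the Ddr1 isoform held a mean of 8.35% (GFP-positive) against 10.9% (GFP-negative). In the same order, the means were 24.8 against 53.5% for Daam2 and 37.6 against 36.3% for Camkk2. They were 49.4 against 72.8% for Myrf and 73.4 against 66.1% for Strn3.

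In Gas7 the 86 nt exon, the one shown whose length is not a multiple of 3, was missing from 45.1, 49.1 and 48.5% of the pair in GFP-positive libraries and from 49.4, 24.5 and 36.6% in GFP-negative ones. Etnk2, an ethanolamine kinase gene, ranged from 26.2 to 56.5% and from 39.9 to 91.1%. In these 9 genes the libraries of a group often differed among themselves by more than the groups did, as the plot of exon skipping by library shows. None of the isoforms passed the test of its share of the gene described further on.

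**Figure D2:**
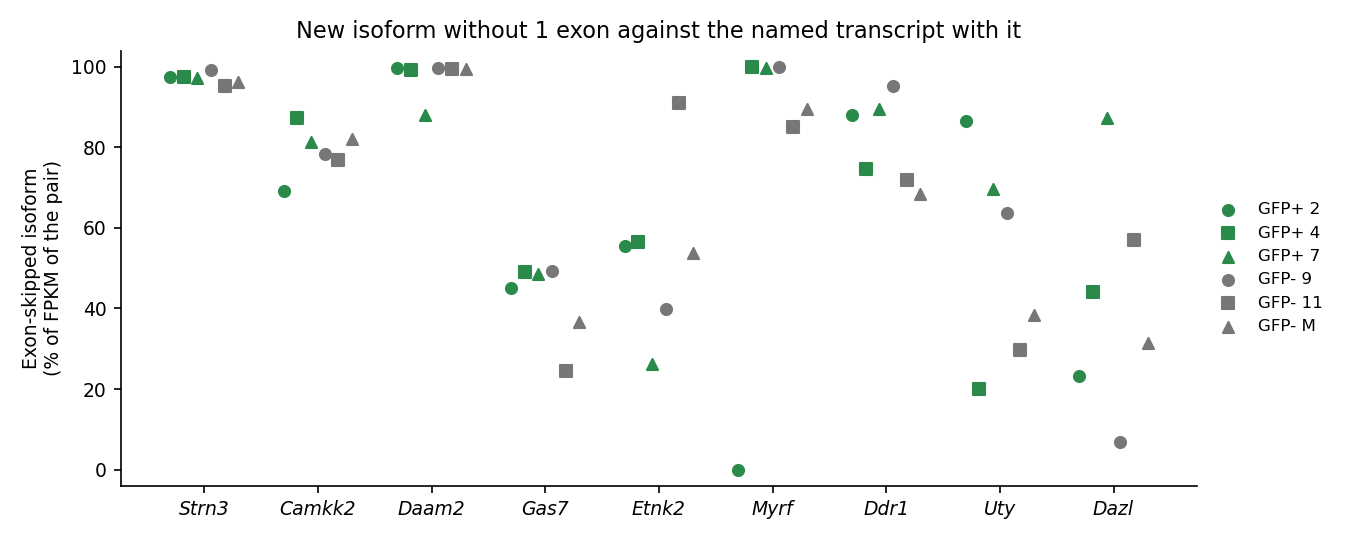
Percent of the summed FPKM of a pair of transcripts that belongs to the new isoform without the exon, per library (green GFP-positive, grey GFP-negative, 1 point per library), in 9 genes. Strn3 and Daam2 sit near the top in nearly all libraries, while Uty runs from 20.02 to 86.5% within the GFP-positive group.

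The share of an isoform is its FPKM as a percent of the summed FPKM of all transcripts of its gene in the same library. The median mean share of a new isoform was 14.9% (quartiles 7.68 and 26.0%). A mean share of at least 50% was reached by 333 isoforms, and 936 stayed under 5%. In 1134 of the 3503 genes (32.4%) the transcript with the highest mean FPKM was a new one. Summed over the new isoforms of a gene, the median share was 30.5, 30.2 and 31.3% in the GFP-positive and 30.03, 29.3 and 29.0% in the GFP-negative libraries. New isoforms held over 50% of their gene in all 6 libraries in 298 genes (8.51%) and over 90% in 28. Most genes had a single new isoform (2164) or 2 (707). The most were found at Gm47283 on the Y chromosome (21), Ncor1 (17), a corepressor of nuclear receptors, Ahnak (15), a very large scaffold protein, and Zbtb20 (14), a zinc finger repressor.

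The highest isoforms belonged to genes that are themselves high, and several of those genes have near-identical copies whose reads the counting could split. The isoform of Vim (chromosome 2, 13578763 to 13587637, 10 exons against at most 9 in named transcripts), which encodes the intermediate filament vimentin, was at 77.1, 240.8 and 101.6 FPKM in GFP-positive libraries and 179.4, 535.4 and 188.6 FPKM in GFP-negative ones. Its share was 34.8, 62.9 and 33.9% against 37.4, 62.6 and 30.7%, so one library of each group stood above the other two and the groups overlapped (log2 odds difference 0.02, SE 0.68, limma adjusted p = 0.991). The isoform of Rps27, a small-subunit ribosomal protein gene with such copies, had shares of 1.71, 30.2 and 45.7% against 47.5, 10.03 and 29.9%. That of Rpsa, a gene of the same subunit, held 17.8 to 23.1% and 14.3 to 24.6%, and that of the pseudogene Rpsa-ps10 ran from 0 to 52.05% and from 1.84 to 52.9%.

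The isoform of Mcam, which encodes a cell adhesion molecule, began 1100 bases upstream of the named transcripts and had 17 exons against at most 16. Its share was 34.9, 81.6 and 71.6% in GFP-positive libraries and 81.1, 2.13 and 65.1% in GFP-negative ones, so GFP-negative 11 stood far below the other libraries. The isoform of Col4a2, a basement membrane collagen chain, began 45768 bases upstream, with 49 exons against 48, and held 86.4, 78.6 and 30.9% against 54.4, 36.5 and 34.3%. For Ubb, a polyubiquitin gene, the isoform with 3 exons against at most 2 held 31.4 to 32.9% and 27.6 to 28.7%; the groups did not overlap, at a log2 odds difference of 0.27 (SE 0.31, limma adjusted p = 0.693).

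Some genes were made up almost wholly of a new isoform. At Gm8399, a gene listed with 1-exon transcripts, a 715 nt isoform without introns (chromosome 13, 81213920 to 81214634) lay wholly beyond the 3′ end of the named transcripts and held 94.7 to 98.6% of the gene in GFP-positive libraries and 94.3 to 96.0% in GFP-negative ones. At the noncoding gene Gm35533 an isoform that matched a kept intron of 5048 nt held 97.5 to 99.2% and 99.4 to 99.5%. The isoform of H2bc24, a histone gene whose near-identical relatives make its counting uncertain, held 95.9 to 98.3% and 97.3 to 98.3%. In Mybpc3, which encodes a myosin-binding protein of striated muscle, the isoform differed from a named transcript by an exon of 3 nt and held 88.8 to 100% and 96.4 to 99.95%. At Ppp1ccb the isoform began 2740 bases upstream and held 74.2 to 77.9% against 81.3 to 87.3%, without overlap (log2 odds difference -0.58, SE 0.32, limma adjusted p = 0.392).

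The share of no transcript passed the test between the groups. The log2 odds of each share (the isoform against the rest of its gene, each plus 0.5 FPKM) were fitted with limma over 27372 transcripts, and 0 (0%) passed a Benjamini-Hochberg adjusted p of 0.05. Among the 5007 new isoforms tested 0 passed, and the smallest adjusted p was 0.0657. At an unadjusted p under 0.05 stood 774 new isoforms (15.5%) against 18% of all transcripts tested. On that log2 odds scale, which is used wherever an overlap is counted for shares, the groups did not overlap in 1031 new isoforms, against 25.1% of all. They were higher in GFP-positive libraries in 650 (13.0%), against 13.3% of all, and lower in 381 (7.61%), against 11.8% of all. These counts moved with the setting. With 0.1 FPKM added instead, 579 were higher and 431 lower, and with 1 FPKM 758 and 365. With the share as a fraction, 560 were higher and 457 lower. Of all 27372 transcripts, 3207 and 3000, 4083 and 3427, and 3083 and 3016 were higher and lower in these settings. The median within-group SD of a share was 5.61 percentage points in GFP-positive libraries and 5.95 in GFP-negative ones, and the median absolute difference between group means was 5.59 points. Without GFP-negative 9, 122 of 4947 new isoforms passed (87 higher, 35 lower), against 853 of 27499 transcripts (433 higher, 420 lower). Leaving out any of the other 5 libraries gave 0.

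The 6 new isoforms with the smallest p in that fit were picked after their values were seen. Pdrg1, a gene named for its regulation by p53 and DNA damage, had a 6-exon isoform (chromosome 2, 152850810 to 152857347) at 25.5, 28.9 and 25.4% of the gene in GFP-positive libraries and at 0, 0 and 0.845% in GFP-negative ones. Every GFP-positive library was above every GFP-negative one, while the gene as a whole was lower in GFP-positive libraries (log2 difference -1.67, SE 0.38, limma adjusted p = 0.0165). The log2 odds difference was 3.84 (SE 0.37, limma adjusted p = 0.0657). An isoform of Sft2d2, which encodes a membrane protein of vesicle transport (chromosome 1, 165001906 to 165022007, 9 exons), was listed at 0 in the GFP-positive libraries and held 55.4, 54.2 and 70.7% of the gene in the GFP-negative ones (limma adjusted p = 0.0966).

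For Dsp, the gene of the desmosomal protein desmoplakin, the isoform matched intron 23 of 1040 nt kept in and held 90.4, 95.1 and 69.7% in GFP-positive libraries and 17.8, 1.46 and 8.98% in GFP-negative ones. The level of that isoform was 2.38, 2.05 and 1.51 FPKM against 1.68, 0.113 and 0.933 FPKM, and that of the whole gene 2.64, 2.15 and 2.17 against 9.46, 7.70 and 10.4 FPKM. The larger share thus went with a lower gene total. The difference in log2 odds was 4.42 (SE 0.58, limma adjusted p = 0.0966). In Socs2, a suppressor of cytokine signalling, the isoform held 3.92, 5.65 and 3.39% against 25.2, 25.5 and 27.4% (log2 odds difference -2.42, SE 0.33, limma adjusted p = 0.0966).

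The isoform of Ece1, endothelin converting enzyme, held 10.5, 10.2 and 15.3% against 0.847, 1.77 and 1.24% (2.87, SE 0.35, limma adjusted p = 0.0966 on the same scale). Its level was 0.584, 2.07 and 1.45 against 0.294, 0.588 and 0.692 FPKM, with overlap, while the gene sum was lower (log2 difference -1.91, SE 0.44, limma adjusted p = 0.0163). The isoform of the zinc finger gene Zfp637 held at most 0.258% in GFP-positive libraries and 7.23, 3.599 and 9.04% in GFP-negative ones (-3.00, SE 0.32, limma adjusted p = 0.0922). The Zfp637 gene sum was higher in GFP-positive libraries (log2 difference 1.43, SE 0.34, limma adjusted p = 0.0182). Without GFP-negative 9 the isoform of Zfp637 was under the filter on low values, and the other 5 passed, with limma adjusted p-values from 0.0298 for Pdrg1 to 0.0371 for Socs2.

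**Figure D3:**
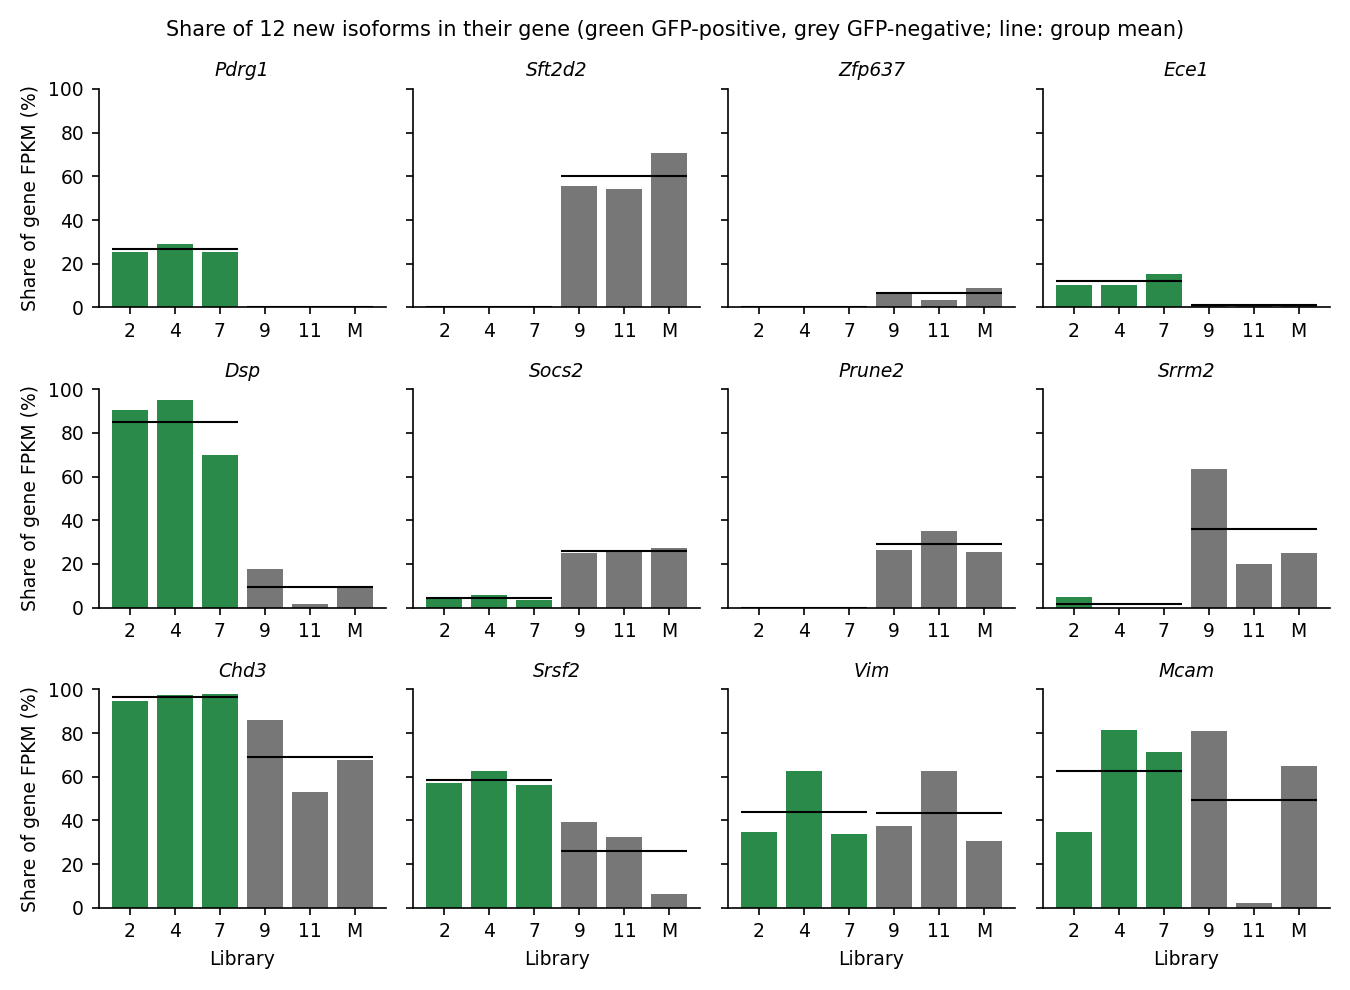
Share of the gene's FPKM held by 1 new isoform of each of 12 genes, a bar per library (green GFP-positive 2, 4 and 7, grey GFP-negative 9, 11 and M) and a line at each group mean. In Pdrg1, Ece1 and Dsp the GFP-positive bars are the higher ones and in Sft2d2, Zfp637 and Socs2 the lower ones, while Vim and Mcam vary as much within a group as between groups.

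Isoforms of a single exon mostly had higher shares in GFP-positive libraries. There were 75, in 68 genes, with a median length of 999 nt and most lay in genes with named transcripts of many exons. Among the 57 tested, the median share was 28.1, 38.1 and 37.8% in GFP-positive libraries 2, 4 and 7 and 16.5, 12.2 and 12.8% in GFP-negative libraries 9, 11 and M. On the log2 odds scale the groups did not overlap in 37 of them. Of the 57, 33 (57.9%) were higher in GFP-positive libraries, against 13.3% of all transcripts, and 4 (7.02%) lower, against 11.8% of all. At an unadjusted p under 0.05 stood 36, against 18% of all transcripts, and 0 passed after adjustment. Spliced new isoforms were higher without overlap in 12.5%. Of 398 named 1-exon transcripts tested, from any of the 3503 genes with new isoforms and not only these 68, 26.6% were higher and 12.8% lower. With no filter on low values, 36 of 74 were higher and 6 lower, against 13.99% higher among spliced new isoforms. In that setting 20 passed the adjusted test, 19 of them higher, against 3850 of 74193 transcripts in all. With library weights 17 of 57 passed, all of them higher, against 664 of 27372 transcripts. With the share as a fraction, without the added 0.5 FPKM, 30 of 57 were higher without overlap and 5 lower. Of all 27372 transcripts, 3083 were then higher and 3016 lower. The scales can differ in low isoforms. That of Hmga2 counts as higher on the log2 odds scale, but its shares were 14.5, 4.31 and 5.23% against 9.92, 23.0 and 14.1%, with overlap.

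Under 2000 nt, a limit chosen after the values were seen and given with no test, 30 of 42 were higher in GFP-positive libraries without overlap and 1 was lower. Of the 15 longer ones, 3 were higher and 3 lower. Leaving out each library in turn left 27 to 34 of the short ones higher without overlap and 1 or 2 lower. Of spliced new isoforms 16.5 to 21.9% were then higher. Leaving out GFP-negative 11 and M together left 32 of 45 short ones higher and 3 lower. With only 1 GFP-negative library left the groups overlap less often. In that setting 7643 of 25505 transcripts were higher without overlap and 7267 lower. Without GFP-negative 9, 14 of the single-exon isoforms passed the test, all of them short and all higher in GFP-positive libraries. In that setting 853 of 27499 transcripts passed. With the share as a fraction and all libraries, 28 of the 42 short ones were higher without overlap and 1 was lower.

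In Chd3, an ATPase of the NuRD chromatin remodeller, a 540 nt isoform (chromosome 11, 69241078 to 69241617) inside a gene of up to 40 exons was at 62.5, 123.5 and 94.4 FPKM in GFP-positive libraries and 54.9, 31.5 and 45.03 FPKM in GFP-negative ones. Its share was 94.7, 97.7 and 97.8% against 85.9, 53.2 and 67.9%, without overlap. The log2 odds difference was 3.52 (SE 0.65, limma adjusted p = 0.106, and 0.0329 without GFP-negative 9). In Stk10, a serine/threonine kinase gene, a 442 nt isoform held 69.9, 76.4 and 80.2% against 34.9, 24.0 and 22.5%.

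In Prpf4, which encodes a protein of the spliceosome's U4/U6 particle, a 476 nt isoform held 39.9, 44.7 and 33.3% against 0, 2.91 and 2.10%. In Bag3, a co-chaperone gene, a 1472 nt isoform held 55.9, 60.9 and 48.3% against 16.8, 8.16 and 8.07%, although its level was alike in the groups, at 0.870, 1.53 and 0.804 against 0.770, 1.11 and 0.885 FPKM. The gene around it was lower in GFP-positive libraries (log2 difference -1.98, limma adjusted p = 0.011). In Cep295, a centriole gene, the 374 nt isoform went the other way in most libraries, with 43.2, 62.9 and 61.1% against 39.2, 71.2 and 73.3%, and the groups overlapped. Stk10, Prpf4, Bag3 and Cep295 were picked after their values were seen.

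In level, 4 of the 66 single-exon isoforms that passed the filter rose and 1 fell, where 3.56% of all transcripts rose and 2.56% fell. Library depth, which was higher in each GFP-positive library, moved with the pattern, and its part in it was not tested. GENCODE M21 places a snoRNA, scaRNA, snRNA or miRNA gene on the same strand inside 13 of the 66 genes that could be matched by symbol (19.7%), among them Chd3 and Cep295, the latter with the scaRNA gene Scarna9. The same was found in 375 of 3366 genes (11.1%) with spliced new isoforms only. Whether an isoform covers such a gene was not analysed here. A gene listed on the opposite strand overlapped 7 of the 75, and without these 32 of 52 were higher in GFP-positive libraries and 3 lower.

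**Figure D4:**
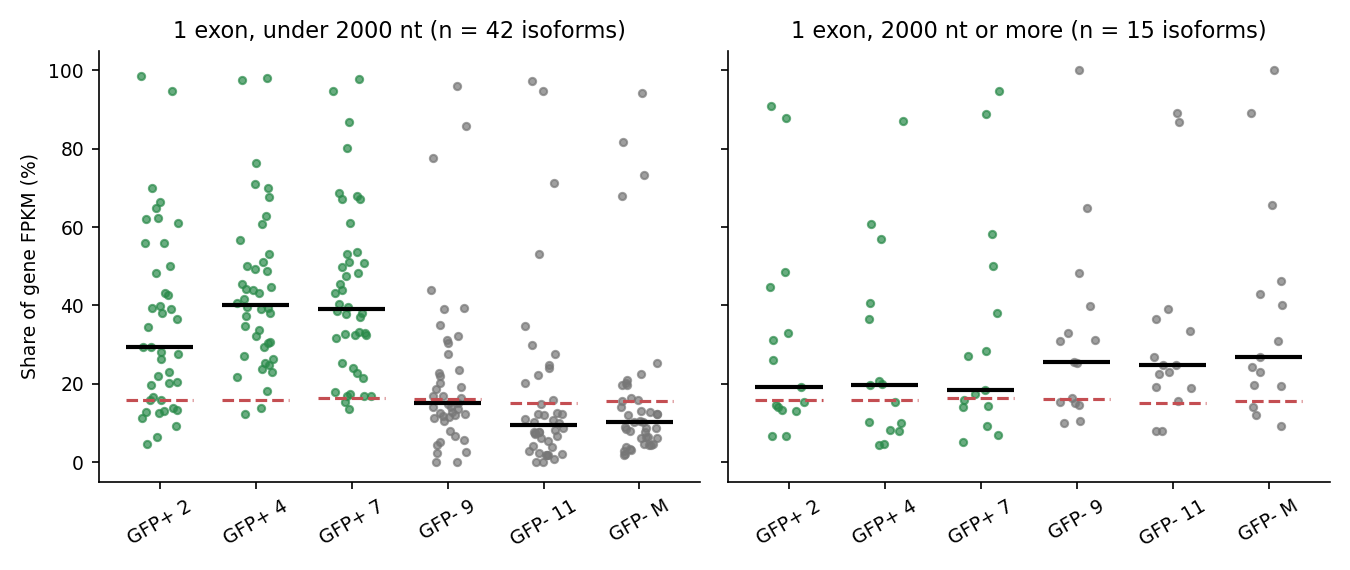
Share of the gene's FPKM held by each single-exon new isoform, 1 point per isoform and library (green GFP-positive, grey GFP-negative), for isoforms under 2000 nt (left, 42) and longer ones (right, 15). Black lines are medians and red dashed lines the median of spliced new isoforms. On the left the medians run from 29.4 to 40.1% in GFP-positive libraries and from 9.40 to 15.01% in GFP-negative ones, while the medians of spliced isoforms stay between 15.2 and 16.5%.

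Of all transcripts tested, 13.3% were higher and 11.8% lower in share without overlap. By class, the shares did not overlap and were higher in GFP-positive libraries in 13.9% of 512 kept introns tested, 8.42% of 380 skipped exons, 9.00% of 822 isoforms with added exons and 13.6% of 3165 with another chain. They were lower in 8.40%, 8.95%, 7.18% and 7.46%. Of 40 isoforms without several neighbouring exons, 8 were higher and 4 lower. Among isoforms that extend at least 100 bases beyond the named 3′ end, 7.81% of 960 were higher and 9.27% lower, and for the 5′ end 9.90% of 495 and 6.87%.

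At the level of single transcripts, 252 of the 5093 new isoforms that passed the filter of 0.5 FPKM differed between the groups. In the fit of log2(scaled FPKM + 0.5) over 34579 transcripts with limma, 4.95% of new isoforms passed an adjusted p of 0.05, against 6.12% of all transcripts. Of these, 77 rose in GFP-positive libraries (1.51%, against 3.56% of all) and 175 fell (3.44%, against 2.56%). The named transcripts of the same genes gave 146 rises and 306 falls among 8485. The counts rested on single libraries. They were 21, 13 and 0 without GFP-positive 2, 4 and 7, 657, 4 and 4 without GFP-negative 9, 11 and M, and 0 without the last pair together. At an unadjusted p under 0.05 there were 1302 in the fit of all libraries, 978 without GFP-positive 7 and 698 without that pair. Scaled to an equal sum of FPKM, 1413 passed, of which 2.62% rose against 30.6% in the fit above; this scaling moved the median of all transcripts from -0.04 to -0.82.

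The sum of a gene includes its new isoform, so agreement between the isoform and its gene is partly built in. The level of the rest of the gene was not tested by itself. In 48 of the 77 rises and 137 of the 175 falls the gene sum passed in the same direction. In 2 rises (Pdrg1 and Bag5) and 1 fall (Bag1), named after their values were seen, it passed in the other. Gene sums passed in 1148 of the 3503 genes that hold new isoforms (32.8%), against 30.3% of all 15298 genes tested, with 328 rises (9.36%, against 16.6%) and 820 falls (23.4%, against 13.7%). That count fell to 665, 714 and 186 without GFP-positive 2, 4 and 7, and to 108 without GFP-negative M. Without GFP-negative 11 and M together 0 passed (limma, 885 at an unadjusted p under 0.05). Under the equal sum 2190 genes passed and 52 of them rose, where the median of all genes was -0.87.

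**Figure D5:**
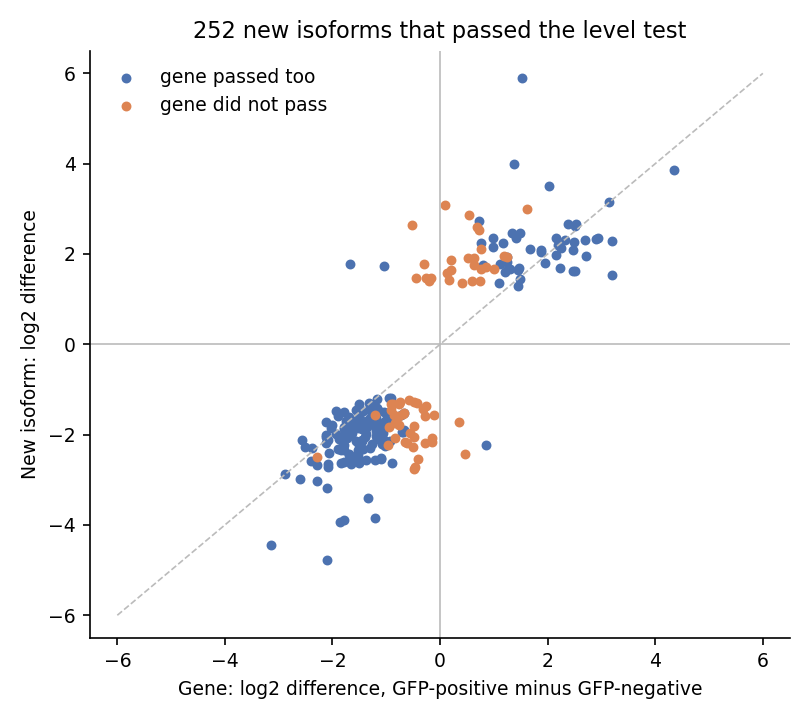
Log2 difference (GFP-positive minus GFP-negative) of the 252 new isoforms that passed the level test, against that of their gene sum. Blue points are isoforms whose gene passed as well, orange points those whose gene did not, and the dashed line marks equal differences. Most points lie in the 2 quadrants of equal sign, and 3 blue points lie in the others.

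The 8 largest rises and 8 largest falls among genes with ordinary symbols, without overlap of the groups and with 1 isoform per gene, were chosen after the values were seen. The isoform of Rps18, a small-subunit ribosomal protein gene with near-identical copies, was at 154.6, 123.7 and 120.4 FPKM in GFP-positive libraries and 9.69, 0.814 and 0.336 FPKM in GFP-negative ones. The gene as a whole was at 593.8 to 800.8 and 172.8 to 299.7 FPKM, so the isoform differed more than its gene (log2 difference 5.89, SE 0.85, limma adjusted p = 0.0257, against 1.52, SE 0.35, for the gene). An isoform of Ubxn6, a cofactor of the segregase VCP, was at 8.08, 12.6 and 11.6 against 0.231, 0.343 and 0.0454 FPKM (log2 difference 3.99, SE 0.32, limma adjusted p = 0.00808). For Rpl22, of the large ribosomal subunit, the values were 14.9, 11.8 and 20.3 against 1.18, 0.857 and 0.694 FPKM (3.50, SE 0.32, limma adjusted p = 0.00901).

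Cxadr, which encodes a tight junction receptor, had an isoform at 2.31, 4.05 and 10.004 FPKM against 0.367, 0 and 0 FPKM. It rose by 3.09 (SE 0.51, limma adjusted p = 0.0296) in a gene whose sum differed by 0.09 (SE 0.36, limma adjusted p = 0.862). The isoform of Ndufs5, a subunit of respiratory complex I, was at 1.38, 4.61 and 4.55 FPKM and listed at 0 in all GFP-negative libraries (limma adjusted p = 0.027). That of the zinc finger gene Zfp518a was at 6.99, 1.91 and 3.52 against 0, 0.0666 and 0 FPKM (3.00, SE 0.43, limma adjusted p = 0.0257), and that of the pseudogene Zscan4-ps4 at 12.8, 2.19 and 3.15 against 0.114, 0.0222 and 0.0877 FPKM (3.14, SE 0.57, limma adjusted p = 0.0335). The pseudogene has near-identical relatives.

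Among the falls, the isoform of Srrm2, a large scaffold protein of the spliceosome, was at 0.602, 0 and 0 FPKM in GFP-positive libraries and 34.4, 11.2 and 13.4 FPKM in GFP-negative ones. It fell by 4.78 on the log2 scale (SE 0.52, limma adjusted p = 0.0155), and its gene fell by 2.11 (SE 0.22, limma adjusted p = 0.00306). That of Hspg2, the basement membrane proteoglycan perlecan, had 98 exons and was at 1.68, 1.10 and 1.33 against 16.4, 103.2 and 37.9 FPKM (-4.46, SE 0.61, limma adjusted p = 0.0257). The isoform of Sft2d2 described above was at 0 in GFP-positive libraries and 5.60, 6.51 and 9.88 FPKM in GFP-negative ones (limma adjusted p = 0.00714).

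The isoform of Prune2 was also listed at 0 in GFP-positive libraries and stood at 4.96, 6.21 and 3.50 FPKM in the others (limma adjusted p = 0.00893). For Slc7a1, a transporter of cationic amino acids, it was at 0, 0 and 0.227 against 7.27, 7.92 and 8.68 FPKM (-3.90, SE 0.29, limma adjusted p = 0.00687). For Inppl1, an inositol phosphatase, the values were 0.696, 0.771 and 2.27 against 16.5, 33.6 and 21.2 FPKM (-3.85, SE 0.44, limma adjusted p = 0.0183).

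The receptor phosphatase gene Ptprf had an isoform that began 4518 bases upstream of the named transcripts, at 4.86, 26.05 and 4.58 against 75.5, 88.0 and 80.3 FPKM (-3.18, SE 0.62, limma adjusted p = 0.0372). That of Ahnak2 was at 0, 0.411 and 0 against 3.15, 6.04 and 4.55 FPKM (-3.02, SE 0.38, limma adjusted p = 0.0216). Of these 16 isoforms, counting Dazl below, 9, 7 and 16 no longer passed without GFP-positive 2, 4 and 7, and 12 without GFP-negative 11 or without M. Each of them passed without GFP-negative 9.

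The gene groups are set against all features tested. Isoforms of the same gene are not independent, and the share counts of a group were not made per gene or with the share as a fraction. Of all transcripts, 13.3% were higher and 11.8% lower in share without overlap, with a median log2 odds difference of 0.03, and 3.56% rose and 2.56% fell in level. Of all genes, 16.6% rose and 13.7% fell. Scaling to an equal sum of FPKM moved the median level difference of all transcripts to -0.82 and of all genes to -0.87. Under it 456 of 36378 transcripts rose and 7816 fell, and 584 of 15486 genes rose and 6880 fell. Splicing factors and their kinases had new isoforms in 20 of 32 listed genes, 61 in all. Of 48 tested, 0 passed for share, and 5 were higher and 5 lower without overlap, which is close to the share of all transcripts. In level 1 rose (Srsf1, not with an equal sum of FPKM or with FPKM as deposited) and 1 fell (Srrm2), against 13 falls of 50 with an equal sum. The isoform of Srsf2 with the highest level, which ended 6301 bases beyond the named transcripts, held 57.2, 62.8 and 56.2% in GFP-positive libraries and 39.2, 32.4 and 6.48% in GFP-negative ones (log2 odds difference 2.29, SE 0.78, limma adjusted p = 0.202). Srsf2 encodes an SR protein that controls exon inclusion.

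Chromatin enzymes had 58 new isoforms in 16 of 35 genes. Of 43 tested for share, 14 were higher in GFP-positive libraries without overlap and 1 lower, against 13.3% and 11.8% of all transcripts. Several came from the same gene, so the 43 are not independent. The median log2 odds difference was 0.45, and 0 passed. In level 3 fell (those of Tet3 and Chd4 among them), and 10 of the 16 gene sums fell, against 13.7% of all genes. Under the equal-sum scaling 20 of 45 isoforms and 16 of 16 gene sums fell. The isoform with the highest level was another one of the NuRD ATPase gene Chd4, which matched intron 25 of 5738 nt kept in and held 22.3, 67.05 and 11.5% against 61.6, 38.3 and 27.3%, with overlap (-0.52, SE 0.90, limma adjusted p = 0.804). Cytoskeleton genes had 48 in 11 of 24 genes, of which 45 were tested, 4 were higher and 1 lower in share without overlap, and 6 fell in level, with 8 of 11 gene sums, against 2.56% of all transcripts and 13.7% of all genes. With an equal sum 29 of 45 isoforms and 10 of 11 gene sums fell. The median level difference of these isoforms was -1.48, against -0.04 for all transcripts.

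Extracellular matrix genes had 14 new isoforms in 10 of 29 genes. Of 13 tested, 4 were higher and 1 lower in share without overlap, with a median log2 odds difference of 1.59 and 0 past the test. In level 1 fell (Hspg2), and 7 of 10 gene sums fell, against 13.7% of all genes. After equal-sum scaling 7 of 14 isoforms and 10 of 10 gene sums fell. Cytosolic ribosomal protein genes had 7 in 7 of 83 genes. Of these, 2 were higher in share without overlap, 3 rose in level (Rps18, Rpl22 and Rpsa), and 6 of 7 gene sums rose, against 16.6% of all genes. With an equal sum 3 isoforms rose and 1 fell, and 3 gene sums rose and 1 fell. Noncoding RNA genes had 21 in 9 of 28 genes, with 2 of 18 higher and 2 lower in share without overlap and 1 rise in level (Rian, not with an equal sum of FPKM). In Snhg1, a host of small nucleolar RNAs, the highest isoform matched the first intron, of 213 nt, kept in and held 16.6, 72.2 and 29.5% against 63.3, 46.03 and 60.9%. Imprinted genes had 18 in 7 of 29 genes, with 2 of 15 higher and 2 lower in share and the same isoform of Rian risen in level. In Peg10, a gene derived from a retrotransposon, the isoform held 67.4, 78.9 and 90.1% against 70.6, 81.9 and 75.03%.

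Y-linked genes share their chromosome with the reporter, and they held few new isoforms outside Gm47283. Together with their X-linked partners, 8 of 16 listed single-copy genes had 16 new isoforms, of which 11 were tested, 0 passed for share or level, and 2 were lower in share without overlap. Ddx3y, an RNA helicase gene (chromosome Y, 1260771 to 1286629), had 2. One with 17 exons held 30.8, 27.2 and 28.6% in GFP-positive libraries and 29.1, 33.3 and 40.9% in GFP-negative ones (log2 odds difference -0.42, SE 0.35, limma adjusted p = 0.569). The other, with 15 exons and 7048 nt, held 44.0, 49.0 and 39.5% against 32.5, 46.9 and 22.9% (0.43, SE 0.41, limma adjusted p = 0.626). The X-linked partner Ddx3x had an isoform of 9973 nt that held 35.5, 37.7 and 35.9% against 38.0, 23.2 and 35.3%. The pair are close relatives, and how shared reads were counted is not stated in the labels, so both are uncertain.

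Eif2s3y, which encodes a subunit of translation initiation factor eIF2, had a 7-exon isoform (chromosome Y, 1010624 to 1023721) at 1.499, 0.617 and 1.27 against 1.82, 1.56 and 1.56 FPKM. Its share was 4.48, 4.13 and 6.61% against 10.4, 23.04 and 18.2%, without overlap (log2 odds difference -1.67, SE 0.43, limma adjusted p = 0.135, and 0.049 without GFP-negative 9). The gene was at 14.9 to 33.5 and 6.77 to 17.4 FPKM. Uty, a relative of the histone demethylase UTX, had 2 isoforms (chromosome Y, 1098020 to 1245759), and its X-linked relative Kdm6a makes the counting uncertain. The one without exon 13 was at 4.804, 0.825 and 4.46 against 2.67, 0.607 and 0.900 FPKM and held 22.5, 7.46 and 27.3% against 14.1, 11.7 and 11.8% (0.31, SE 0.49, limma adjusted p = 0.779). The other held 20.8, 6.12 and 22.2% against 10.4, 0 and 7.48%. Both were low in GFP-positive 4 and in GFP-negative 11.

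Kdm5d, a histone H3 lysine demethylase gene, had 1 isoform that matched intron 22 of 184 nt kept in, at 0.316, 0.590 and 0.4998 against 0.0646, 0.918 and 0.436 FPKM, below the filter of the tests. The 21 isoforms of Gm47283 (chromosome Y, 90728862 to 90827734) together held 94.5, 90.2 and 97.4% of the gene in GFP-positive libraries and 97.4, 89.0 and 85.1% in GFP-negative ones. Of the 21, 10 were tested, and the smallest adjusted p of their shares was 0.373 (limma). The isoform of the pseudogene Mid1-ps1 held 71.9 to 80.3% and 12.95 to 83.6%.

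Of 4 germ cell genes with new isoforms, all 4 gene sums rose, against 16.6% of all genes, and 2 of 3 isoforms tested rose (those of Dazl and Gfra1), against 3.56% of all transcripts. Under equal-sum scaling 3 of 4 gene sums and 1 of 4 isoforms rose. Dazl encodes an RNA-binding protein that germ cells need. Its isoform without the 51 nt exon printed above was at 13.3, 3.13 and 11.6 FPKM in GFP-positive libraries and 0.0419, 0.0229 and 0.183 FPKM in GFP-negative ones, and the gene at 62.96, 7.89 and 15.9 against 0.666, 0.238 and 0.679 FPKM. The groups did not overlap, at a log2 difference of 3.87 (SE 0.52, limma adjusted p = 0.0257) for the isoform and 4.36 (SE 0.64, limma adjusted p = 0.00627) for the gene. The share of the isoform was 21.05, 39.6 and 73.2% against 6.30, 9.63 and 26.9%, with overlap (log2 odds difference 0.33, SE 0.77, limma adjusted p = 0.86). The germ cell marker sums moved the same way, and their part in the result was not tested. In bulk RNA, more cells of a type and more RNA per cell cannot be told apart.

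Sertoli markers had 17 new isoforms in 8 genes. Of 15 tested, 2 were higher and 1 lower in share without overlap, 0 changed in level, and 3 of 8 gene sums fell, against 13.7% of all genes. With an equal sum 4 of 16 isoforms and 5 of 8 gene sums fell. The isoform with the highest level, of Shbg, the gene of the androgen-binding protein of Sertoli cells, held 11.4, 53.4 and 10.2% against 12.9, 24.4 and 70.5%. For Cnn1, a calponin of myoid cells, Pdgfrb, a growth factor receptor of fibroblasts, and Star, a cholesterol carrier of Leydig cells, the isoforms held 0 to 26.3%, 0 to 78.4% and 9.97 to 19.2% in GFP-positive libraries. They held 0 to 35.6%, 55.06 to 62.2% and 7.75 to 11.7% in GFP-negative ones. The myoid, fibroblast and Leydig lists had 2, 4 and 7 new isoforms. Of these, 1, 3 and 5 were tested, and 0 of those tested passed for share or level. The macrophage and endothelial lists had none.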

How the data were processed

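Total RNA of 6 libraries was sequenced, per the labels' protocols after TRIzol extraction, DNase treatment and removal of ribosomal RNA, as dUTP strand-specific libraries. Trimmomatic, HISAT2, StringTie and the mm39 build are listed, with no versions, in the submitters' processing notes. The authors deposited a FPKM and a mean coverage for each of 153503 transcripts in each library, per the file headers. Coverage divided by FPKM was constant within a library and gave its aligned bases. Read counts were not used, so no counting interval is given.

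A gene was the sum of its named transcripts and the new isoforms that the rule assigns to it, and 1425 transcripts without a gene were left out of gene sums. Library scaling used the median ratio across 12680 genes, and all FPKM printed are scaled. limma 3.58.1 in R 4.3.3 (lmFit, eBayes with trend, Benjamini-Hochberg) was fitted on log2 values with a pseudocount of 0.5, over all transcripts or genes with a mean of at least 0.5 FPKM, and of at least 200 nt for levels. The pseudocount understates level changes of low values. In the share fit it was added to the isoform and to the rest of its gene, and it can shift a difference or turn its sign. The median log2 odds difference of new isoforms was 0.085, 0.132 and 0.149 at pseudocounts of 0.1, 0.5 and 1. A new isoform had to belong to a gene of mean FPKM of at least 1, and 1137 of the 6230 fell below the 0.5 filter. The share fit also required at least 0.5 FPKM in the rest of the gene. The fit was tested on simulated data. Differences are GFP-positive minus GFP-negative.

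Named isoforms are those with the highest level (8) or share (6, in genes of at least 10 FPKM), the highest of each of 8 gene lists and 7 marker lists, and all of Y-linked genes. Largest share changes were to be named too, but 0 passed. Others are marked as chosen after their values were seen. The members and lists were chosen with earlier results of these data known. Intron and exon lengths and exon sequences came from GENCODE M21 (GRCm38), matched by transcript identifier where exon number and intron total equalled those of the tables, for 24868 of 25915 spliced named transcripts. No coordinates were converted between builds. Results for some genes are not reported here. Alternatives varied the pseudocount, filter, scaling, variance model, library weights, threshold, share scale, gene minimum and libraries. Leaving out unnamed Ensembl transcripts, and GFP-negative 11 and M together, were added after seeing the data. Scripts used Python 3.11.15, pandas 2.3.3 and matplotlib 3.10.9.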

Additional observations from a re-analysis of the deposited data

How the results depend on the processing

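No read counts were used, so precision rests on 3 libraries a group. No paired analysis was possible because the groups share no replicate numbers. The search for polyadenylation signals and promoter letters at the ends was not run, for want of a genome of the build of the tables. For the changes below, the cause was not tested.

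For the share of new isoforms, where 0 passed, 2 passed at a pseudocount of 0.1 (Pdrg1 and Sft2d2), 224 with no filter on low values, 113 with library weights, 1 with the share as a fraction (Gm5128) and 1 in genes of at least 10 FPKM (Pdrg1). Over all transcripts, 9 of 27372, 3850 of 74193, 664 of 27372, 2 of 27372 and 5 of 15828 passed in these settings. Leaving out 1 library gave 0 to 122. For their level, where 252 passed, 5 passed at a threshold of 0.01, 0 with no filter (1388 at an unadjusted p under 0.05 in limma), 1413 with an equal sum of FPKM, 1787 with library weights and 0 without GFP-negative 11 and M together (698 unadjusted). Leaving out 1 library gave 0 to 657. For the genes that hold them, where 1148 passed, 173 passed at a threshold of 0.01, 446 with no filter, 2190 with an equal sum, 2826 with library weights and 0 without GFP-negative 11 and M together (885 unadjusted). Leaving out 1 library gave 108 to 1481. In genes of at least 5 FPKM, the median over genes of the summed share averaged 27.7% over libraries. With FPKM summed over all genes of at least 1 FPKM before dividing, the share averaged 27.1%. Ends at least 500 bases beyond the named transcripts were found in 5.02% at the 5′ and 13.4% at the 3′ side.

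The log2 odds difference of some shares turned sign, each with a limma adjusted p of at least 0.619 there. Leaving out 1 library in turn, it ran from -0.54 to 0.59 for Vim, -2.02 to 0.76 for Rps27, -2.56 to 2.12 for Rpsa-ps10, -0.64 to 2.88 for Mcam, -1.47 to 0.15 for Chd4, -0.21 to 0.71 for Peg10, -1.95 to 0.14 for Shbg, -0.52 to 1.09 for Dazl, -0.0313 to 0.82 for Uty, -0.17 to 0.26 for Camkk2, -0.21 to 0.21 for Etnk2 and -0.65 to 0.12 for Ddr1. Without GFP-negative 11 and M together, it was 1.87 for Rpsa-ps10, -1.24 for Mcam, -0.35 for Rpsa, -0.0689 for Ddx3x, 0.82 for Shbg, -0.0519 for Strn3 and 0.21 for Etnk2. With the share as a fraction, the difference was 0.0334 for Rpsa-ps10 and -0.00616 for H2bc24. With library weights Ddr1 was at 0.0126.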
